A study of Homo sapiens with 8 samples.

Results

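The genes described here are 9 genes of retinoic acid metabolism and classical retinoic acid response, CYP26A1, CYP26B1, DHRS3, RDH10, RDH11, RDH14, ALDH1A1, CRABP2 and TGM2, in a list of PML::RARA Cut&Run peaks. They were chosen by name. Their peaks are the rows that the authors labelled with 1 of these symbols, plus unlabelled rows on the same chromosome whose centre lay within 50 kb of the centre of such a row. This gave 7 of the 15412 peaks in the list, 6 at DHRS3 and 1 at RDH14. Of the 9 genes, 2 had a labelled peak and 7 had none.

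Retinol is oxidised to retinaldehyde and then to retinoic acid, which binds retinoic acid receptors on DNA and switches on genes, among them genes that remove retinoic acid again. PML::RARA, the fusion protein of acute promyelocytic leukemia, keeps the DNA-binding and ligand-binding parts of the retinoic acid receptor alpha. The receptor, paired with a retinoid X receptor, recognises a pair of hexamers in direct repeat, with a gap of a few bases. The paper describes a wider and more complex range of DNA binding for the fusion protein, whose molecules can join through their PML part.

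U937-PR9 is a human monocytic cell line that carries a PML::RARA transgene under a promoter switched on by zinc. The cells received 100 µM ZnSO4 (induced) or water (control), each for 5 h, and Cut&Run, in which a nuclease tied to an antibody releases the DNA beneath the bound protein, was done with an anti-PML-RARA or an anti-RARA antibody. Each of the 4 combinations of treatment and antibody had 2 replicates, which gave 8 libraries. The peaks used here are those of the anti-PML-RARA antibody after induction, and the other 3 combinations were not analysed. All values therefore come from 1 cell line with a transgene, in which the effects of zinc itself and of the fusion protein cannot be told apart. Peaks were kept where 2 libraries reproduced them, but each peak carries 1 set of values, so the spread between replicates is unknown and no test was made. The depth behind each value is unknown too. Each peak has a width, a total signal and a largest signal, here termed its height. Over all peaks the median height was 25, with a range of 13 to 87, and the median width 829.5 bp, with a range of 77 to 7313 bp. A label means that the authors found the apex, the point of largest signal, over a promoter of that gene. There were 7169 labelled and 8243 unlabelled peaks.

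The sequences that bear on the results are shown first, in hg19 and from 5′ to 3′, with hexamers in capitals. A hexamer is AGGTCA or its variant AGTTCA, and either may begin with G, as GGGTCA or as GGTTCA. The first is the 1 direct repeat found near the apex of a peak at these genes, in intron 1 of DHRS3 (chr1:12664568-12664664, minus strand). It has 5 bases between its hexamers.
DHRS3 peak in intron 1: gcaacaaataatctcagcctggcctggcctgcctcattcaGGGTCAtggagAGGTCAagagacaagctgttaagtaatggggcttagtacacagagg
The next 4 are direct repeats with the same gap within 10 kb of the start of CYP26A1. No peak covered them. They lie at chr10:94830259-94830315 (minus strand), chr10:94831654-94831710 (plus strand), chr10:94833554-94833582 (minus strand, touching an annotated UTR of an alternative transcript) and chr10:94843330-94843386 (minus strand).
CYP26A1, 3363 bp upstream of the start: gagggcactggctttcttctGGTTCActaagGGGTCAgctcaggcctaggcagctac
CYP26A1, 1968 bp upstream: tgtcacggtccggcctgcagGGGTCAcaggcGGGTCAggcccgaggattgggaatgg
CYP26A1, 82 bp upstream: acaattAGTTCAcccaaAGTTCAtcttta
CYP26A1, 9708 bp downstream: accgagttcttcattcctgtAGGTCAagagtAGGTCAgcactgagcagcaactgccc
Then follow repeats with a gap of 1 base upstream of CRABP2 (chr1:156675800-156675852, minus strand) and of TGM2 (chr20:36797480-36797532, plus strand), also outside every peak.
CRABP2, 451 bp upstream: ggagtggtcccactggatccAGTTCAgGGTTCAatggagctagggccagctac
TGM2, 3834 bp upstream: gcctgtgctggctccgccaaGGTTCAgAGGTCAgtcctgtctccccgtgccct
The last is the stretch just upstream of RDH14 within its labelled peak (chr2:18741946-18742095, minus strand), where the capitals are AGTTCA read on the other strand and no direct repeat was found.
RDH14, 150 bases upstream: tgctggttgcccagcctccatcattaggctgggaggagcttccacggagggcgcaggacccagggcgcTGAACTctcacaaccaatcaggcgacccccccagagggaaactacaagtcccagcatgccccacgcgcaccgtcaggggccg

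DHRS3 and RDH14 were the genes with a labelled peak, which is 22.2% of the 9 (Wilson 95% interval 6.32 to 54.7%). Of all protein-coding genes, 30.0% had a labelled peak, a share inside that interval. The genes were chosen by name with earlier results of these data known, so the interval covers the counting only and is not a test. DHRS3 encodes the enzyme that reduces retinaldehyde back to retinol, and RDH14 a retinol dehydrogenase. The labelled DHRS3 peak had a height of 28 and ranked 5910 among the 15412 peaks by height and 2940 by width (rank 1 is the highest, and ties share their mean rank). The labelled RDH14 peak had a height of 19 and ranked 11944 by height and 5066.5 by width. The DHRS3 peak was thus higher than 60.1% and wider than 80.9% of all peaks, whereas the RDH14 peak was higher than 19.5% and wider than 67.1%. Against the median height of the labelled peaks alone, 26, the DHRS3 peak was again above and the RDH14 peak below. Against their median width, 1108 bp, the RDH14 peak at 1103 bp was also below, although it was above the median width of the whole list, while the DHRS3 peak at 1426 bp was above both.

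**Figure D1:**
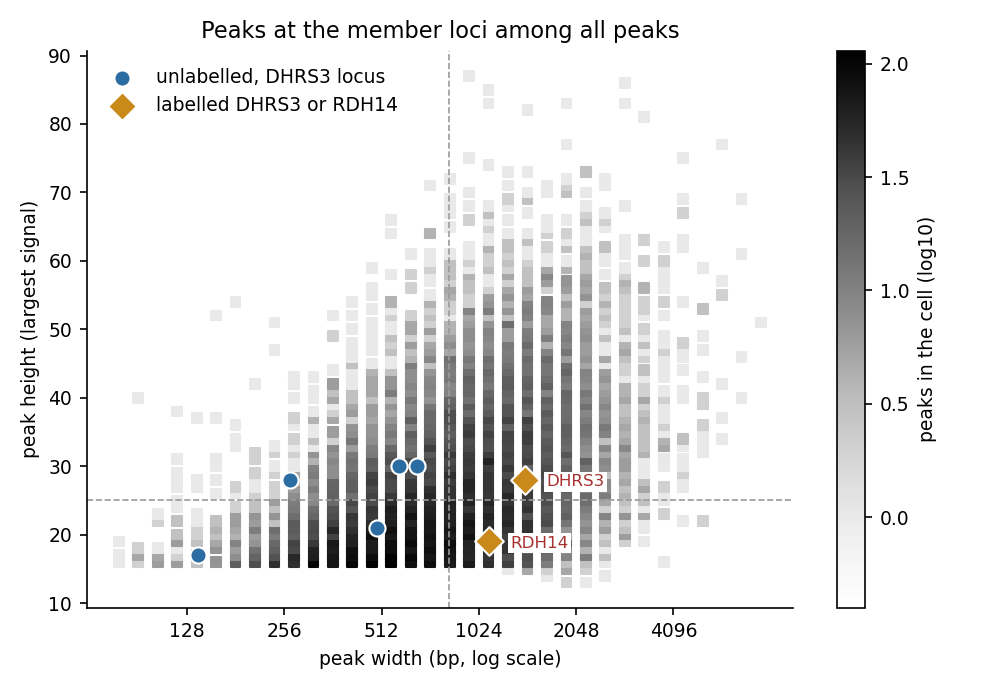
Peak height (largest signal, vertical axis) against peak width in bp (horizontal axis, log scale) for all 15412 peaks, shaded by the number of peaks in each cell, with the 7 peaks at DHRS3 and RDH14 as coloured points and the medians, 25 and 829.5 bp, as dashed lines. The labelled DHRS3 peak (height 28, width 1426 bp) lies above both medians, the RDH14 peak (19, 1103 bp) above the width median only, and the 5 unlabelled DHRS3 peaks all lie left of the width median.

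DHRS3 (ENSG00000162496, minus strand of chromosome 1 from 12627939 to 12678216) carried 6 peaks, spread over 44.2 kb and covering 3565 bp of it. Around its labelled peak, 5 unlabelled peaks lay within 50 kb. Of all labelled peaks, 4.35% had that many or more unlabelled neighbours at this distance, and 51.5% had none, as was the case for RDH14. The DHRS3 peaks had a median height of 28 and a median width of 537.5 bp. Of the 6 heights, 4 were above the median of the whole list, whereas of the 6 widths only that of the labelled peak was.

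The labelled DHRS3 peak, from 12679742 to 12681167, was 1426 bp wide with a total signal of 11805. Its apex lay over no annotated gene, 2477 bp upstream of the canonical start site. It was the widest of the 6 but not the highest. In the gene, the peak from 12664221 to 12664800 (width 580 bp, total signal 5895) reached a height of 30, which ranked 5015 by height and 10864 by width, and its apex lay in intron 1, 13629 bp downstream of the start. The peak from 12675577 to 12676071 (495 bp, total signal 3311) also had its apex in intron 1, 2500 bp downstream of the canonical start and 984 bp from the start of an alternative transcript. With a height of 21 it ranked 10284.5 by height and 12100 by width. Both peaks inside DHRS3 were narrower than the median peak, and one was above and the other below the median height.

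Farther upstream of DHRS3, the peak from 12690722 to 12691380 (659 bp, total signal 6846) was as high as the peak at 13.6 kb in the gene, at 30. It ranked 5015 by height and 9768.5 by width, and its apex lay 12912 bp upstream of the DHRS3 start, over no gene. The peak from 12694212 to 12694477 (266 bp, total signal 3060) had a height of 28, the same as the labelled peak, in a much smaller width. It ranked 5910 by height and 14871 by width. Its apex lay 16173 bp upstream of DHRS3 and 9715 bp from the start of the neighbouring gene AADACL4, so it was closer to that gene. The peak from 12708244 to 12708382 was the lowest and narrowest of the group, with a height of 17, a width of 139 bp and a total signal of 1072. It ranked 13785.5 by height and 15342 by width, and its apex lay in intron 1 of AADACL4, 4190 bp from the start of AADACL4 and 30078 bp upstream of DHRS3. Of the 6 peaks, 4 thus lay upstream of DHRS3 and 2 inside it, and the outermost upstream pair were nearer to the start of AADACL4 than to that of DHRS3.

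**Figure D2:**
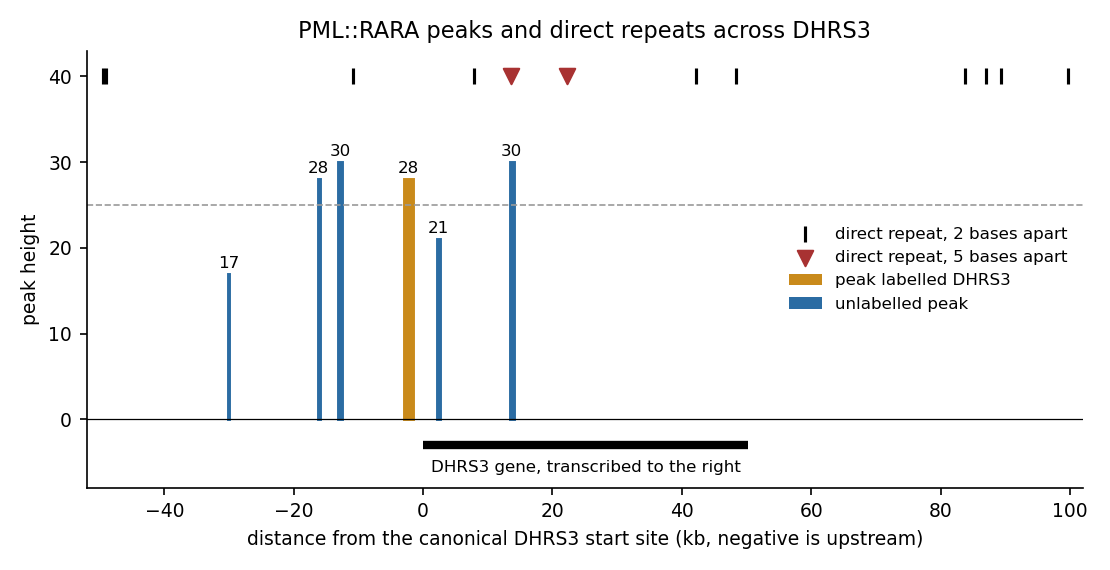
Height (largest signal, vertical axis) of the 6 peaks around DHRS3 against distance in kb from its canonical start site (horizontal axis, negative upstream), with bars as wide as the peaks apart from a thin outline, the list's median height of 25 as a dashed line, and direct repeats marked along the top. Heights were 17, 28, 30, 28, 21 and 30 from the farthest upstream to the farthest downstream peak, and 1 of the 12 direct repeats falls on a peak.

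The distance limit did not separate these peaks from a close neighbour. The farthest unlabelled peak inside the limit lay 27.9 kb from the labelled DHRS3 peak, and the nearest one outside it 139.4 kb away, with a height of 29, in an intron of VPS13D. For RDH14 the nearest unlabelled peak was 1644 kb away.

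The labelled DHRS3 peak was poor in CpG dinucleotides for a labelled peak and the RDH14 peak was not. In the 401 bp around the apex, the labelled DHRS3 peak held 5 CpG at 53.4% GC, while the median labelled peak held 33 at 64.3% and the median unlabelled peak 7 at 52.9%. The 5 unlabelled DHRS3 peaks held between 5 and 10 CpG, which is ordinary for unlabelled peaks, whose quartiles were 4 and 11. The RDH14 peak held 33 CpG at 68.1% GC, which is the median CpG number of labelled peaks. The mean signal per base was 8.28 in the labelled DHRS3 peak and 7.20 in the RDH14 peak, against a median of 8.74 over all peaks. It was highest among the 7, at 11.5, in the 266 bp peak upstream of DHRS3.

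RDH14 (ENSG00000240857, minus strand of chromosome 2 from 18735989 to 18741945) had its peak from 18741052 to 18742154, with a width of 1103 bp and a total signal of 7938. Its apex lay 33 bp upstream of the canonical start of RDH14 and 7 bp from the nearest annotated RDH14 start, within intron 10 of the read-through transcript NT5C1B-RDH14. The labelled peaks of both genes thus stood at different places, at the start for RDH14 and 2477 bp upstream for DHRS3. Over all labelled peaks the median distance was 75 bp, but this was taken to the nearest annotated start of any gene, not to the gene's own canonical start.

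RDH10, the main retinol dehydrogenase that makes retinaldehyde, had no labelled peak, but its start lay under a peak that the authors labelled RPL7, a ribosomal protein gene that starts beside it. RDH10 (ENSG00000121039) lies on the plus strand of chromosome 8 from 74206837 to 74237516, and the peak from 74205792 to 74207559. Its width was 1768 bp and its height 19, which gave a rank of 11944 by height and 1583.5 by width. Its apex lay over RPL7, 205 bp from an RPL7 start, and 369 bp upstream of the RDH10 start, while the peak itself covered the RDH10 start. An unlabelled peak with a height of 31 lay 31.0 kb beyond the other end of RDH10. Over all protein-coding genes, 35.1% had their canonical start inside a peak, as RDH10 and RDH14 did.

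TGM2, a transglutaminase that cross-links proteins and is induced by retinoic acid in myeloid cells, had an unlabelled peak inside the gene and none at its start. TGM2 (ENSG00000198959) lies on the minus strand of chromosome 20 from 36755787 to 36794980. The peak, from 36772175 to 36772978, was 804 bp wide and 18 high, with ranks of 12847 by height and 8002 by width. Its apex was in intron 6, 21.0 kb downstream of the canonical start and 10462 bp from the nearest TGM2 start. CRABP2, which carries retinoic acid into the nucleus, had no peak within 10 kb of the gene (ENSG00000143320, minus strand of chromosome 1 from 156669398 to 156675608). Within 50 kb of it lay 6 peaks, of which 3 were labelled for the neighbouring genes ISG20L2, MRPL24 and HDGF and 3 were unlabelled. The nearest of them to the CRABP2 start was 20.3 kb away, in intron 2 of ISG20L2, with a height of 18. TGM2 and CRABP2 were thus about as far from a peak as the typical gene, since the median distance from a protein-coding start to the nearest peak was 19.4 kb.

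The other 4 genes had no peak within 100 kb of the gene, as was the case for 24.0% of all protein-coding genes. CYP26A1 and CYP26B1 encode cytochromes P450 that degrade retinoic acid, RDH11 a retinal reductase, and ALDH1A1 an enzyme that oxidises retinaldehyde to retinoic acid. The start of CYP26A1 (ENSG00000095596, chromosome 10 from 94833232 to 94837642) was 316.4 kb from the nearest peak, and 12.2% of protein-coding genes were as far or farther. For CYP26B1 (ENSG00000003137, chromosome 2 from 72356367 to 72374991) the distance was 400.2 kb, and 9.97% of genes were as far or farther. RDH11 (ENSG00000072042, chromosome 14 from 68143517 to 68162510) was 335.6 kb from a peak, which was labelled ATP6V1D, and 11.6% of genes were as far or farther. ALDH1A1 (ENSG00000165092, chromosome 9 from 75515587 to 75695358) was 366.0 kb from a peak, with 10.8% as far or farther. With DHRS3, RDH14, RDH10, TGM2 and CRABP2, 5 of the 9 genes had any peak within 50 kb of the gene, and this was the case for 67.6% of protein-coding genes.

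**Figure D3:**
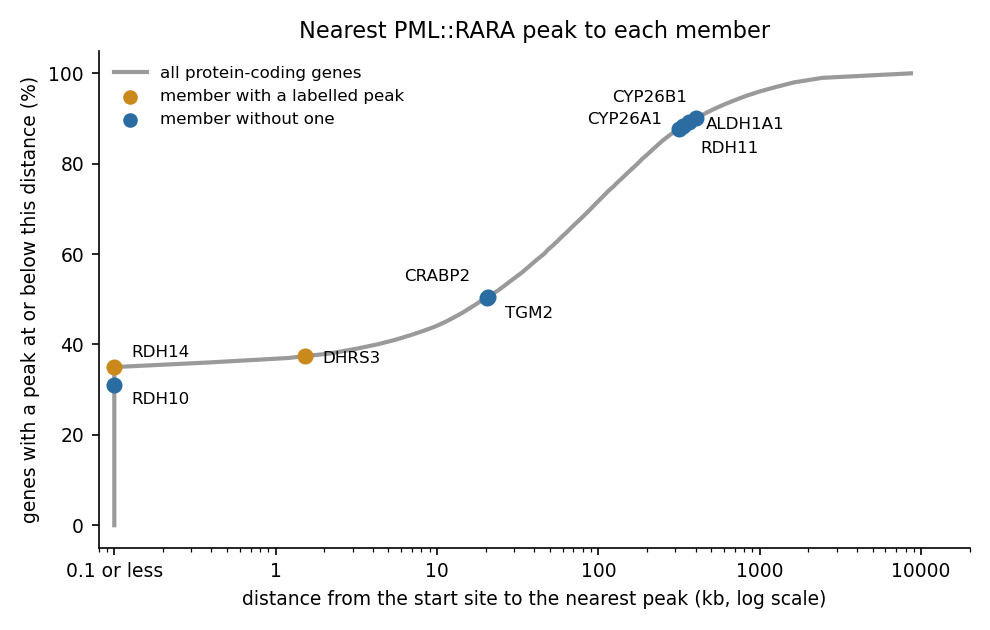
Share of protein-coding genes (vertical axis, percent) whose canonical start lies at or below a given distance from the nearest peak (horizontal axis, kb, log scale, with distances of 0.1 kb or less at the left edge), with the 9 genes marked on the curve. RDH10 and RDH14, both at a distance of 0, are drawn one above the other at the left edge, CRABP2 and TGM2 lie near the middle at 20.3 and 20.7 kb, and ALDH1A1, CYP26A1, CYP26B1 and RDH11 lie between 316.4 and 400.2 kb.

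Direct repeats of the hexamers were looked for on both strands with gaps of 1, 2 or 5 bases, in the 401 bp around each apex. A single hexamer inside a repeat was also counted as a hexamer. Pairs of hexamers that face opposite ways were not searched for, so a peak without a direct repeat is not shown to lack a binding site. Of all peaks, 0.980% held a direct repeat and 0.227% held one with a gap of 5. The peak of height 30 in intron 1 of DHRS3 held one with that gap, and the other 6 peaks at DHRS3 and RDH14 held none. Its hexamers were GGGTCA and AGGTCA, and the centre of the repeat lay 29 bp from the apex. There were 35 peaks with such a repeat, 7 labelled and 28 unlabelled, with a median height of 26. Of them 12 were higher than the DHRS3 peak and 20 were lower. All 7 peaks at DHRS3 and RDH14 held at least 1 hexamer, as did 55.3% of all peaks, 63.7% of the unlabelled and 45.6% of the labelled ones. The ETS-type site, AGGAAGT or GGGAAGT, was in 2 of the 7 and in 32.1% of all peaks.

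Most direct repeats found by the search lay outside the listed peaks. Over the 150.3 kb of DHRS3 and 50 kb on either side, there were 12 direct repeats, 10 with a gap of 2 and 2 with a gap of 5, and only the one printed above lay in a peak. The other with a gap of 5 lay 22213 bp downstream of the start, still inside the gene, where no peak was listed. Within 10 kb of the canonical starts of the 9 genes there were 14 direct repeats, none of them in a peak. Around all protein-coding starts, 0.878% of 21859 such repeats lay in a peak, and 4.12% of the 753 with a gap of 5 did. The share of the searched sequence that peaks cover was not computed, so these percentages have no baseline. Near the starts of DHRS3, CRABP2 and RDH11, every repeat with a gap of 2 read AGGTCA then AGTTCA, followed by similar bases. Those near CYP26A1 had other hexamer pairs. Whether the similar ones are copies of a common sequence, or any repeat can bind the receptor, was not tested.

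CYP26A1 had 6 of the 14 repeats, CRABP2 4, RDH11 2, DHRS3 and TGM2 1 each, and the other 4 genes none. At least 1 repeat lay within 10 kb of the start in 65.6% of protein-coding genes, but a repeat with a gap of 5 in only 4.3%. CYP26A1 had 4 with that gap, and of 20098 protein-coding genes 3 had as many or more, the others being FLG2 with 4 and MYL7 with 6. The CYP26A1 repeat 82 bp upstream of the start has AGTTCA in both places, and the one 1968 bp upstream has GGGTCA in both. In the RefSeq promoters, on GRCh38.p14 and from 250 bases before to 50 after the start, 0.259% of 35116 entries held a direct repeat. Of the 10 entries found for 7 of the 9 genes, 1 did, that of CYP26A1. RDH10 and TGM2 had no entry.

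**Figure D4:**
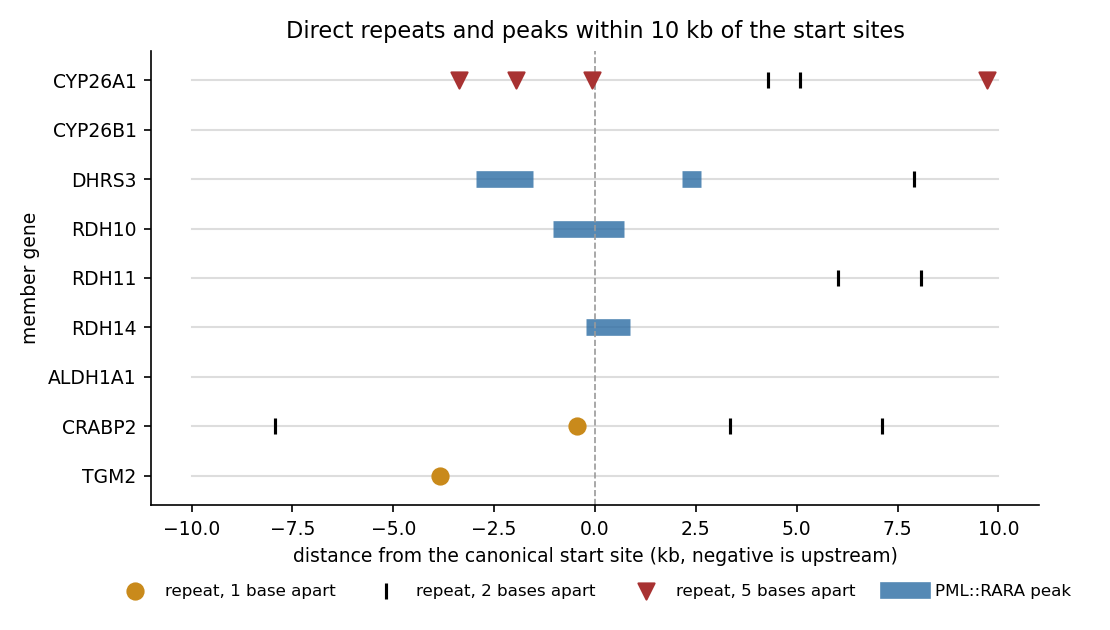
Direct repeats (symbols by the number of bases between the hexamers) and PML::RARA peaks (bars) within 10 kb of the canonical start site of each of the 9 genes, with distance in kb on the horizontal axis and 1 row per gene. None of the 14 repeats lies on a bar, and CYP26A1, with 4 repeats spaced by 5, has no bar.

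Other genes of the same biology were counted by their labels. Of 35 other genes of retinoid transport and metabolism, 3 had a labelled peak (8.57%, Wilson 95% interval 2.96 to 22.4%). This was fewer in proportion than the 30.0% of all protein-coding genes, but the list was chosen by name and the difference was not tested. They were RETSAT, a retinol saturase, with a height of 49, DGAT1, an acyltransferase, with 35, and FABP5, a fatty acid binding protein that also carries retinoic acid, with 19. Of 28 other classical targets of retinoic acid, 9 had a labelled peak (32.1%, interval 17.9 to 50.7%), near the share of all protein-coding genes. These 9 had 13 labelled peaks with heights from 16 to 44 and a median of 31, and 9 of the 13 were above the median height of the list. ASB2, a ubiquitin ligase subunit induced by retinoic acid in leukemia cells, had 3 labelled peaks with heights of 16, 18 and 44. IRF1, an interferon-response factor, had 2, with heights of 37 and 43. CEBPE, a factor of granulocyte development, also had 2, at 16 and 35, so the peaks of ASB2 and CEBPE spread on both sides of the median. The adhesion molecule ICAM1 had a height of 39, the NF-κB inhibitor TNIP1 37, the surface enzyme CD38 31, the cell cycle inhibitor CDKN1A and the adaptor PRAM1 27 each, and RARRES3 16. The labelled DHRS3 peak, at 28, was between the CD38 and the CDKN1A peaks in height, and the RDH14 peak, at 19, was as high as that of FABP5. A label was not given to every gene with a peak near its start. For example, RDH13, DHRS4 and ALDH1A2 of the first list and UBA7 and BTG2 of the second had no label but an apex within 1 kb of one of their annotated starts, as RDH10 did. For ALDH1A2 and UBA7 this was an alternative start only, since their canonical starts lay 244221 and 5836 bp from the nearest peak.

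**Figure D5:**
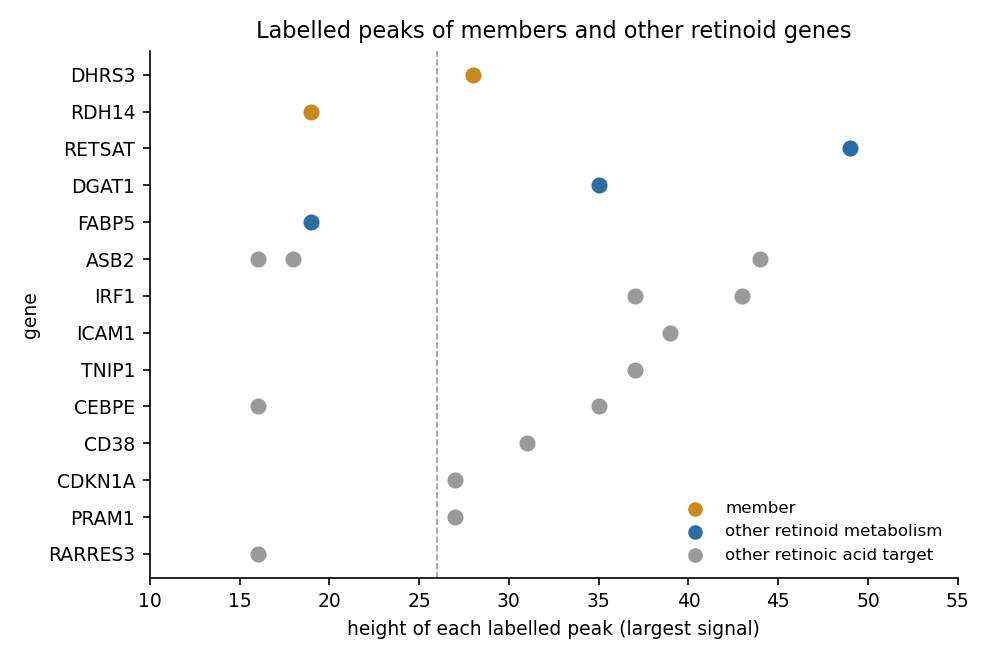
Height (largest signal, horizontal axis) of every labelled peak of DHRS3, RDH14 and the labelled genes of the 2 other lists (vertical axis, 1 row per gene, 1 point per peak), with the median height of labelled peaks, 26, as a dashed line. DHRS3 at 28 lies just above that line and RDH14 at 19 below it, while RETSAT at 49 and ASB2 at 44 have the highest points.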

How the data were processed

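Per the authors' methods and the submitters' processing notes, reads were trimmed with Trimmomatic, aligned to hg19 with Bowtie2, freed of PCR duplicates with Samtools and of blacklisted reads, and peaks were called with SEACR against the paired control. Peaks reproducible between the 2 replicates by IDR were kept, and tool versions are not given in the sources used here. The authors deposited for each peak a total signal, a score that is its largest signal, and a width in bp. No column names a sample, and the list was taken as that of induced cells with the anti-PML-RARA antibody because the number of its rows is the one the study's results text gives for it. The total was taken from the column headed summit and the height from the one headed SEACR_score. This was read from the values, since a total cannot be smaller than the largest signal in it. The totals were at least 805 and the heights at most 87. In all 15412 peaks the total was also at most the height times the width, but that alone would not tell the columns apart. Whether the values come from 1 replicate, a mean or pooled reads is not stated, nor is their scaling. A tall signal or a wide peak can depend on depth and on fragment length, which are unknown here.

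The apex is the midpoint of the interval of largest signal, or its start in the 34 peaks where the end is missing. Genes, start sites and introns came from GENCODE release 44 mapped to GRCh37, where 6381 of the 6546 labelled symbols were found. The length of every chromosome in the reference held all peaks. Exons under 10 bp apart were merged. The hexamers and their direct repeats were searched for on both strands up to 200 bp from the apex, and the search was tested on simulated sequences. Promoter sequences were from RefSeq. No sample was compared with another, and intervals are Wilson 95% intervals that cover the counting of genes only.

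All 9 genes, every peak at them and up to 15 genes of each of the other lists with the highest labelled peak were named. The genes and lists were chosen with earlier results of these data known. The alternatives were other distances, definitions of a label, height and width limits, total signal, and other motif windows and gaps. Analyses used samtools 1.23.1 and Python 3.11.15 with pandas 2.3.3, numpy 2.4.6, pysam 0.24.0, scipy 1.17.1 and matplotlib 3.10.9.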

Additional observations from a re-analysis of the deposited data

How the results depend on the processing

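Of 23 alternatives over 8 results, 14 kept a count within 1.5 times, 7 moved a count by more, and 2 moved the share of protein-coding genes outside its Wilson interval. Leaving out peaks below the median height lowered the genes with a labelled peak from 2 to 1 (DHRS3), the peaks at DHRS3 and RDH14 from 7 to 4, and the share of protein-coding genes with a label from 30.0% to 17.5%. An apex within 1 kb of an annotated start in place of the label raised that share to 39.3% and the other metabolism genes from 3 to 6. It gave 3 of the 9 genes, DHRS3, RDH10 and RDH14. DHRS3 counted only through an unlabelled peak in intron 1, 984 bp from an alternative start, since its labelled peak lay 2477 bp from its nearest start. RDH10 counted through the peak labelled RPL7. A limit of 10 kb left 3 peaks. Of the 2 labelled peaks, 2 in place of 1 were above the median by total signal, and 1 in place of 2 was above the median width of labelled peaks. With the hexamers AGGTCA and AGTTCA alone, 0 in place of 1 of the 7 peaks held a direct repeat. These counts thus depend on the definitions used. No paired analysis was possible because each peak carries 1 set of values for both replicates, and for the same reason neither could be left out. Depth is unknown, so a gene without a listed peak is not shown to be unbound.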
